A study of Mus musculus with 23 samples.

Results

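The genes described here are S100g and 5 genes read beside it, Trpv6, Atp2b1, Vdr, Cyp24a1 and Slc30a10, together 6 of the 19215 entries of the expression table. S100g was chosen by its measured values, as it had the largest increase among named genes after A10-FMT in set 1, and the other genes were picked as parts of calcium absorption or vitamin D action, with Slc30a10 as a metal transporter. The difference between A10-FMT and Sa in set 1 is therefore given as a description with no test. For S100g the same holds for every comparison that shares those libraries. The other genes were tested in such comparisons, but they too were picked with earlier results of these data known. RNA from the small intestine of ICR mice was sequenced in 23 libraries. The sample titles do not name the mouse, and each library was read as a mouse of its own, in both sets. All mice, the Sa mice included, had received a single dose of busulfan, a chemotherapeutic that damages the gut, at 40 mg/kg body weight at 3 weeks of age per the study's methods. From the next day they were given saline (Sa) or luminal content of the small intestine of donor mice by gavage (FMT) for 1 week. The donors had been dosed with vehicle (Con-FMT), or with alginate oligosaccharides (AOS) at 10 mg/kg (A10-FMT) or at 100 mg/kg (A100-FMT), and their contents were pooled within each donor group, so the mice of a group shared 1 inoculum. The study's methods give male mice and sampling at 5 weeks of age. The sample titles name the AOS dose in codes, the code without a dose was read as Con-FMT, and a further code divides the libraries into set 1 and set 2, whose meaning the labels do not give. Each treatment had 3 mice in each set, except Sa of set 1 with 2, and there was no group without busulfan.

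Calcium crosses the absorptive cell of the small intestine in 3 steps. Trpv6, a calcium channel, lets it in at the brush border, S100g, the small calbindin of the enterocyte, binds it and carries it through the cytosol, and the plasma membrane calcium pump Atp2b1 exports it at the basal side. The vitamin D receptor Vdr, bound to active vitamin D, is known to increase transcription of S100g and Trpv6, most of all in the duodenum. Cyp24a1 is the enzyme that degrades active vitamin D and is itself a classic target of the receptor. Slc30a10 belongs to the zinc transporter family and exports manganese.

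S100g lies on chromosome X (162961992 to 162964599), Trpv6 on chromosome 6 (41620619 to 41636405), Atp2b1 on chromosome 10 (98914630 to 99026143), Vdr on chromosome 15 (97854427 to 97908296), Cyp24a1 on chromosome 2 (170482957 to 170497145) and Slc30a10 on chromosome 1 (185454848 to 185468762), in RefSeq positions of GRCm38.p6, the assembly also called mm10. The 250 bases before the RefSeq start of S100g (chrX:162964600-162964849, minus strand) and of Trpv6 (chr6:41636406-41636655, minus strand) are shown because Trpv6 was, of the other members, the gene whose level correlated best with that of S100g over the libraries. They are promoter sequence upstream of the first exon, and capitals mark half-site letters of the vitamin D receptor element.

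S100g: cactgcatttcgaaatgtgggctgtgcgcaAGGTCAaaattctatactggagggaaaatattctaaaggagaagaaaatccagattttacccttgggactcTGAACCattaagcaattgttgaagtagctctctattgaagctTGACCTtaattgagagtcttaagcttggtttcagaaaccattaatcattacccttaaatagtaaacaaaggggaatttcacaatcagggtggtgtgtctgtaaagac
Trpv6: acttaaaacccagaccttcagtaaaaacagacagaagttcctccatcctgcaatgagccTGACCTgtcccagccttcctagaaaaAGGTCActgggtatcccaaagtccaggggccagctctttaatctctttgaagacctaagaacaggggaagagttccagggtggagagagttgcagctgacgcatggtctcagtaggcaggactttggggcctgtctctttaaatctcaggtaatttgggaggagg

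The half-site was searched on both strands as AGGTCA with its variants AGTTCA, also GGGTCA, and lastly GGTTCA, so that TGACCT and likewise TGAACC above are matches on the opposite strand. The S100g window held 3 matches and the Trpv6 window 2, the Vdr window 1, and the Slc30a10 window and both windows listed for Atp2b1 none. At least 1 match was found in 38.6% of 32851 promoter windows of this length, at least 2 in 9.75% and at least 3 in 1.84%. None of the member windows held 2 half-sites in a row with 3 bases between them, which 0.0396% of all windows did. These are matches of letters, not binding sites.

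Levels are FPKM, fragments scaled to transcript length and to all mapped fragments of the library, as deposited, so they can be compared between genes. Differences are between group means of log2(FPKM + 1), which shrinks changes of genes with few FPKM. They were tested with limma in 1 fit over all 8 groups, and a gene passed at a Benjamini-Hochberg adjusted p under 0.05 over the 11337 genes whose mean over the libraries was 1 FPKM or more. Trpv6 (mean 0.464 FPKM) and Cyp24a1 (mean 0.00217 FPKM) were below this limit, so 4 of the 6 genes were tested. The number of reads behind the values is not known. Replicate 3 of Sa in set 1 stood apart. Its correlation with the other libraries was 0.944 to 0.965, against 0.968 to 0.991 among the other 22. Its title and description also name different columns. Values are those of the title's column, and several results that rest on this library, not all, are given with and without it.

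The labelled tissue was checked against its markers. Enterocyte genes summed to 5102 to 14215 FPKM and goblet cell genes to 5290 to 9690 FPKM per library. Smooth muscle genes summed to 0.81 to 2.09 FPKM, B and plasma cell genes to 1.03 to 2.76 FPKM and pancreatic acinar genes to 3.74 to 8.97 FPKM, with the smooth muscle gene Myh11 at 0.04 FPKM or less in every library. These libraries were thus rich in epithelial RNA, and muscle RNA was nearly absent. In such bulk RNA, fewer cells of a type and less RNA per cell cannot be told apart.

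S100g had its highest level in A10-FMT of set 1, with 218, 360 and 209 FPKM in the 3 mice. In Sa of set 1 it was at 17.5 and 46.8 FPKM, and in Con-FMT at 13.9, 41.1 and 31.4 FPKM. Every A10-FMT mouse was thus above every other mouse of the series, the next highest being a Con-FMT mouse of set 2 at 181 FPKM. In A100-FMT of set 1 the values were 88, 42.4 and 91.5 FPKM, all below A10-FMT and above Con-FMT. The lowest overlapped with Sa only through replicate 3 of Sa, at 46.8 FPKM. The mean of A10-FMT, 262 ± 84.7 FPKM (SD, n = 3), was 8.15 times that of Sa, 32.2 ± 20.7 FPKM (n = 2), and 9.11 times that of Con-FMT, 28.8 ± 13.8 FPKM (n = 3). On the log2 scale A10-FMT was 3.10 above Sa and 3.23 above Con-FMT, A100-FMT was 1.25 above Sa and 1.85 below A10-FMT (a difference of -1.85), and Con-FMT differed from Sa by -0.13. Without replicate 3 of Sa, A10-FMT was 3.78 above Sa, and Con-FMT was 0.56 above it, so the direction of this small difference depended on that library. With the column that the description names, replicate 3 of Sa had 79.1 FPKM of S100g.

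In set 2 the order was another one. Con-FMT had 122, 181 and 61.4 FPKM of S100g, Sa 164, 36.9 and 91.6 FPKM, A100-FMT 90.6, 70.6 and 86.3 FPKM, and A10-FMT 72.6, 58.9 and 39.5 FPKM. A10-FMT, the group with the highest mean of set 1, thus had the lowest mean of set 2, 57 ± 16.6 FPKM (SD, n = 3). The groups overlapped in all 6 comparisons of set 2. The Sa mice alone spanned 36.9 to 164 FPKM, a wider range than lay between any group means of this set. Over all 8 groups the means ran in the order A10-FMT of set 1, Con-FMT, Sa and A100-FMT of set 2, A100-FMT of set 1, A10-FMT of set 2, Sa and Con-FMT of set 1. Apart from the first, the values of each group overlapped with those of the next.

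**Figure D1:**
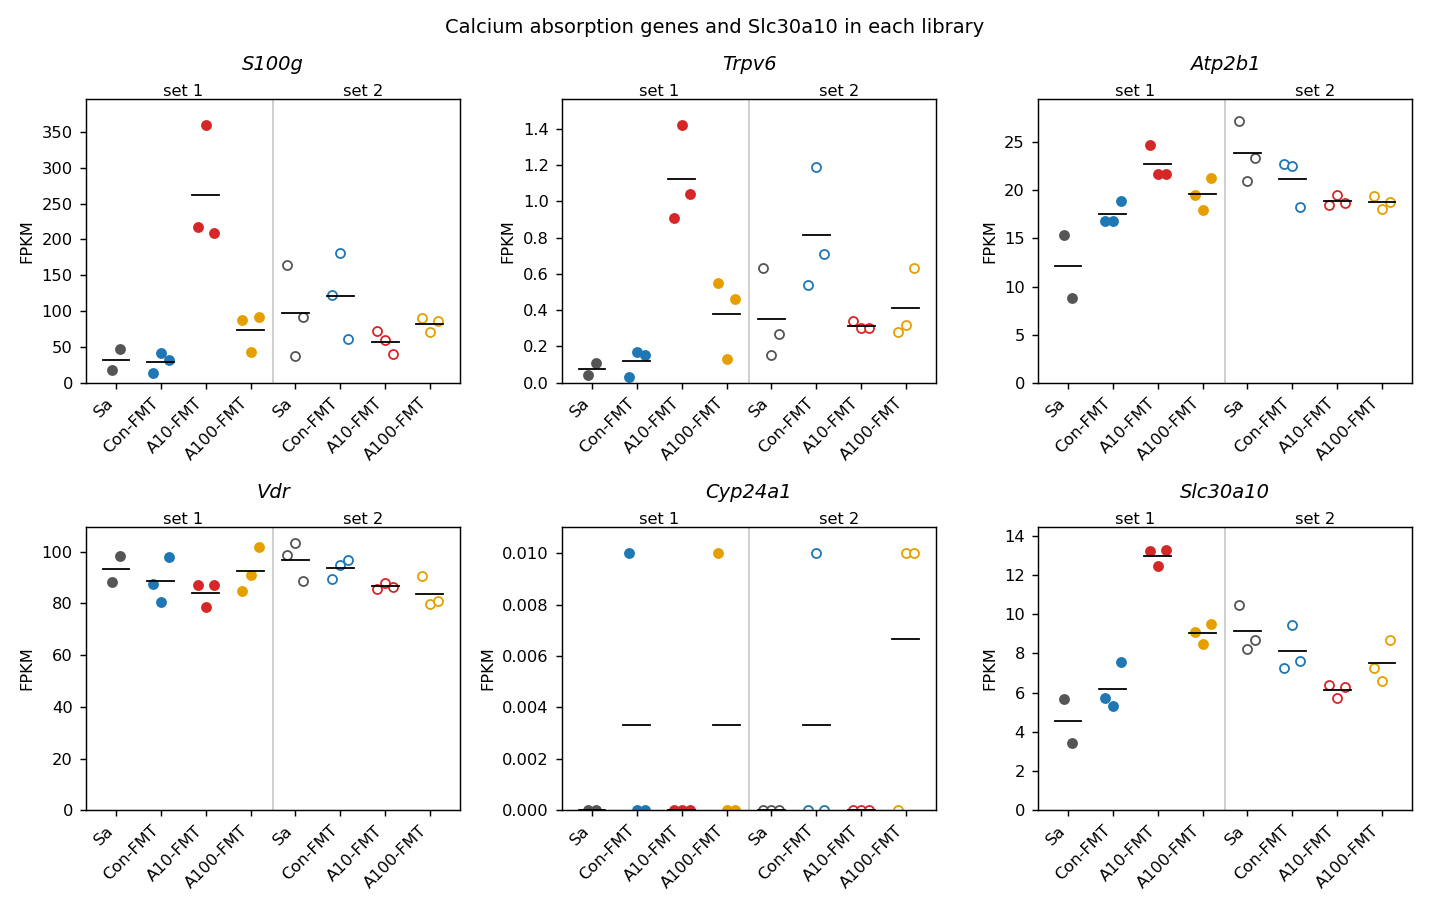
FPKM (y axes, linear, from 0) of the 6 genes in each library, by treatment, with set 1 as filled and set 2 as open points and the group mean as a bar. Within set 1, S100g, Trpv6 and Slc30a10 are highest in the 3 A10-FMT mice, S100g at 209 to 360 FPKM, while in set 2 A10-FMT has the lowest mean of all 3 genes.

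Tests of S100g were made where the comparison held neither Sa nor A10-FMT of set 1. A100-FMT exceeded Con-FMT in set 1 without overlap, with a log2 difference of 1.38 (SE 0.52, 95% interval 0.28 to 2.48). It did not pass (limma adjusted p = 0.315, and 0.130 to 0.793 over the alternatives). In this comparison 0.406% of all tested genes passed in either direction, and 11.5% were higher without overlap. In set 2 A100-FMT differed from Con-FMT by -0.43 (95% interval -1.53 to 0.67, limma adjusted p = 0.809). The difference of these 2 effects, an interaction added after the data were seen, was 1.81 (SE 0.74, limma adjusted p = 0.311). Over both sets A100-FMT was 0.48 above Con-FMT (SE 0.37, 95% interval -0.30 to 1.25, limma adjusted p = 0.774). An exact permutation test of the same difference within sets gave a two-sided p of 0.325 over 400 relabellings, of which the smallest possible p was 0.005. This test was run for all 6 genes.

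The other comparisons of set 2 did not pass for S100g either. Con-FMT was 0.42 above Sa (95% interval -0.67 to 1.52, limma adjusted p = 1). A10-FMT differed from Sa by -0.56 (-1.66 to 0.53, limma adjusted p = 0.701) and from Con-FMT by -0.99 (-2.09 to 0.11, limma adjusted p = 0.476). A100-FMT differed from Sa by -0.0039 (-1.10 to 1.09, limma adjusted p = 0.997) and was 0.56 above A10-FMT (-0.54 to 1.66, limma adjusted p = 0.985). The intervals are wide, and each held a difference of 1 on the log2 scale in at least 1 direction.

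S100g was also compared between the 2 sets within a treatment, and neither tested difference passed. Con-FMT mice of set 1, at 13.9 to 41.1 FPKM of S100g, were all below those of set 2, at 61.4 to 181 FPKM. The log2 difference was -2.04 (SE 0.52, 95% interval -3.13 to -0.94), with a limma adjusted p of 0.666, in a comparison where 0.00882% of the tested genes passed and 6.25% were lower without overlap. A100-FMT of set 1 and of set 2 overlapped and differed by -0.23 (95% interval -1.32 to 0.87, limma adjusted p = 0.889). The 3 A10-FMT mice of set 1 were all above the 3 of set 2, whose highest value was 72.6 FPKM, which is given with no test. What distinguishes the sets, and whether they hold different mice, cannot be told from the labels.

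**Figure D2:**
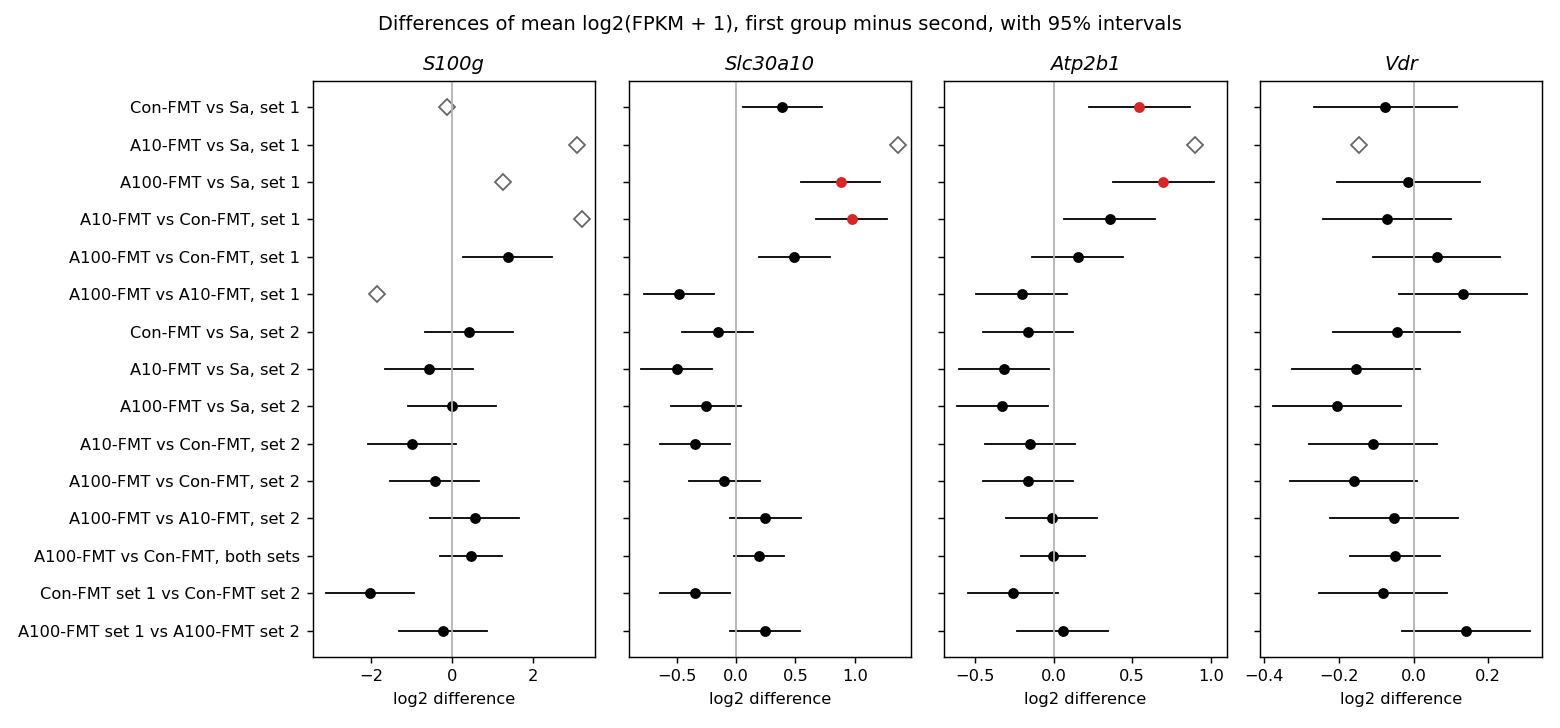
Log2 differences (x axes, first group minus second, on log2(FPKM + 1)) of the 4 tested genes in 15 comparisons, as points with 95% intervals from limma, red where the adjusted p was under 0.05. Open diamonds are differences that the choice of S100g used and that carry no test. In set 2 no point is red, and the S100g intervals all include 0.

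Trpv6, the entry channel, was low in every library, at 0.03 to 1.42 FPKM, but had much the same order as S100g. In set 1 it was at 0.91, 1.42 and 1.04 FPKM in A10-FMT, 0.04 and 0.11 FPKM in Sa, 0.03, 0.17 and 0.15 FPKM in Con-FMT and 0.55, 0.13 and 0.46 FPKM in A100-FMT. A10-FMT was thus above every other mouse of its set, with a mean 9.63 times that of Con-FMT and 15 times that of Sa. In set 2 the order turned, with 0.34, 0.30 and 0.30 FPKM in A10-FMT below all Con-FMT mice at 0.54, 1.19 and 0.71 FPKM, a mean ratio of 0.385. Sa of set 2 had 0.63, 0.15 and 0.27 FPKM and A100-FMT 0.28, 0.32 and 0.63 FPKM, which overlapped with each other and with A10-FMT in part or whole. Con-FMT of set 1 was below Con-FMT of set 2 without overlap, as for S100g. A100-FMT and Con-FMT over both sets differed by -0.03 on the log2 scale (exact permutation test, two-sided, p = 0.885). At such levels a value can rest on few fragments, and how many is not known.

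Atp2b1, the exit pump, was expressed at 8.8 to 27.2 FPKM and varied less. In set 1 Sa had 15.4 and 8.8 FPKM, Con-FMT 16.8, 16.8 and 18.9 FPKM, A100-FMT 19.5, 18 and 21.3 FPKM and A10-FMT 24.7, 21.7 and 21.7 FPKM. All FMT mice were above both Sa mice. Against Sa, Atp2b1 rose in Con-FMT by 0.54 (SE 0.15, limma adjusted p = 0.0266) and in A100-FMT by 0.70 (SE 0.15, limma adjusted p = 0.00733), and it was 0.90 above Sa in A10-FMT, which is a description. These differences rest on replicate 3 of Sa, which had the lowest value of the series. Without it they were 0.17 (limma adjusted p = 0.834), 0.33 (limma adjusted p = 0.288) and 0.53. The first was also lost without replicate 1 or replicate 3 of Con-FMT (limma adjusted p = 0.0621 and 0.0770). A10-FMT exceeded Con-FMT of set 1 without overlap by 0.36, which did not pass (SE 0.14, limma adjusted p = 0.0811), but passed with the spread estimated without replicate 3 of Sa (limma adjusted p = 0.00796). In set 2 the direction was the opposite. A10-FMT, at 18.5, 19.5 and 18.7 FPKM, and A100-FMT, at 19.5, 18 and 18.8 FPKM, were all below Sa at 27.2, 21 and 23.4 FPKM. Those differences of -0.31 (SE 0.14, limma adjusted p = 0.305) and -0.32 (SE 0.14, limma adjusted p = 0.296) did not pass, except with array quality weights (limma adjusted p = 0.0422 and 0.0399).

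Slc30a10, the manganese exporter, was also highest in A10-FMT and next highest in A100-FMT in set 1, with little spread within them. In A10-FMT of set 1 it was at 13.3, 12.4 and 13.3 FPKM, against 5.69 and 3.42 FPKM in Sa, 5.73, 5.3 and 7.55 FPKM in Con-FMT and 9.09, 8.49 and 9.52 FPKM in A100-FMT. The groups A10-FMT, A100-FMT and Con-FMT of set 1 did not overlap with each other. Slc30a10 rose in A10-FMT against Con-FMT by 0.97 (SE 0.14, limma adjusted p = 0.000802) and in A100-FMT against Sa by 0.88 (SE 0.16, limma adjusted p = 0.00371). The second call was lost without replicate 3 of Sa (0.58, limma adjusted p = 0.119), and the first held without any 1 of its 6 libraries, with adjusted p of 0.000868 to 0.00631. A100-FMT was 0.49 above Con-FMT (SE 0.14, limma adjusted p = 0.172) and differed from A10-FMT by -0.48 (SE 0.14, limma adjusted p = 0.0532). A10-FMT was 1.36 above Sa, a description.

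In set 2 Slc30a10 was lowest in A10-FMT, at 6.4, 5.75 and 6.29 FPKM, below all mice of Sa (10.5, 8.25 and 8.69 FPKM), Con-FMT (7.27, 9.46 and 7.61 FPKM) and A100-FMT (7.28, 6.57 and 8.69 FPKM). A10-FMT differed from Sa by -0.50 (SE 0.14, limma adjusted p = 0.121), from Con-FMT by -0.34 (SE 0.14, limma adjusted p = 0.330), and A100-FMT was 0.25 above it (SE 0.14, limma adjusted p = 0.806). None of these passed. The first passed where the spread between mice was estimated without replicate 3 of Sa in set 1, a library outside the comparison (limma adjusted p = 0.0314), and the first and second passed with array quality weights (limma adjusted p = 0.00648 and 0.0307). The A10-FMT effect against Con-FMT differed between the sets by 1.32 (SE 0.20, limma adjusted p = 0.000434), an interaction added after the data were seen, which 20.8% of all tested genes passed. Of the other interactions between the sets, that of A100-FMT against Sa passed for Atp2b1 and Slc30a10 (26.8% of all genes), and neither gene passed with the groups compared alone or with array quality weights (limma adjusted p up to 0.212). That of A100-FMT against A10-FMT passed for none of the 3 genes other than S100g (3.5%).

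Vdr, the receptor, was at 78.5 to 103 FPKM in all libraries and passed in none of the comparisons tested. Its log2 differences ran no further than -0.21 (A100-FMT against Sa of set 2, SE 0.08, limma adjusted p = 0.265), which passed with array quality weights (-0.24, limma adjusted p = 0.0345). In A10-FMT of set 1, where S100g was highest, Vdr had 84.2 ± 4.96 FPKM (SD, n = 3), against 93.3 ± 7.16 FPKM in Sa (n = 2). In set 2 A10-FMT, at 85.7 to 88.1 FPKM, was below all mice of Sa and of Con-FMT, with differences of -0.15 (SE 0.08, limma adjusted p = 0.407) and -0.11 (SE 0.08, limma adjusted p = 0.646). Cyp24a1 was listed at 0 in 18 of 23 libraries and at 0.01 FPKM in the others, so no fold was computed, and the receptor's classic target gave no readable level in any group.

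The counts over the 6 genes are read beside those over all genes. In the A10-FMT and Sa comparison of set 1, 32% of all tested genes passed. No count of the genes described here is given for it, as the choice of S100g used it. For the 3 tested genes other than S100g, 1 of 3 passed between Con-FMT and Sa of set 1 (26.9% of all genes), 2 of 3 between A100-FMT and Sa (35.2%), 1 of 3 between A10-FMT and Con-FMT (16.7%), none between A100-FMT and Con-FMT (0.406%) and none between A100-FMT and A10-FMT (5.66%). Apart from that of A100-FMT and Con-FMT, these comparisons share Sa or A10-FMT libraries with the one that was used. The shares against Sa rest on single libraries. When each library was left out in turn, the genes passing between Con-FMT and Sa ranged from 0 without replicate 1 of Con-FMT, and 1 without replicate 3 of Sa, to 6874 without replicate 1 of Sa, in place of 3051. Between A100-FMT and Sa they ranged from 27 without replicate 3 of Sa to 7060 without replicate 1 of Sa, in place of 3987. In set 2 limma passed none of the 4 genes in any of the 6 comparisons. Of all genes, 0.0353% passed between Con-FMT and Sa, 0.423% between A10-FMT and Sa, 0.0353% between A100-FMT and Sa, 0.379% between A10-FMT and Con-FMT, 0% between A100-FMT and Con-FMT and 0.00882% between A100-FMT and A10-FMT. Replicate 3 of Sa in set 1 widened the spread used for all comparisons. With the spread estimated without it, 389 genes in place of 48 passed between A10-FMT and Sa of set 2, Slc30a10 among them, 577 in place of 4 between A100-FMT and Sa, 276 in place of 43 between A10-FMT and Con-FMT, 294 in place of 0 between A100-FMT and Con-FMT and 15 in place of 4 between Con-FMT and Sa. At an unadjusted p under 0.05 there were 2 of 4 genes between A10-FMT and Sa (Atp2b1 and Slc30a10), 2 between A100-FMT and Sa (Atp2b1 and Vdr), 1 between A10-FMT and Con-FMT (Slc30a10) and 0 in the other 3. Of all 11337 genes, 1627, 1606 and 1348 were under it in these 3 comparisons. In set 1, 4 of the 6 genes were higher without overlap in A10-FMT than in Sa (13.9% of all tested genes) and 1, Vdr, was lower (23.5%), a comparison that the choice used. The count was 4 in A10-FMT above Con-FMT (12.2%), 3 in A100-FMT above Sa (22%), 2 in A100-FMT above Con-FMT (11.5%), 1 in Con-FMT above Sa (18.8%) and 4 in A100-FMT below A10-FMT (8.37%). S100g is in both counts of 4, and these comparisons hold the A10-FMT libraries that chose it, so nothing is read from them. Trpv6 and Cyp24a1 are among the 6 genes but not among all tested genes. In set 2, values lower without overlap were found for 3 of the 6 genes in A10-FMT against Sa (11.4% of all tested genes) and 3 in A10-FMT against Con-FMT (8.3%), and for Atp2b1 in A100-FMT against Sa (10.1%), while Slc30a10 was higher in A100-FMT than in A10-FMT (9.53%). Over both sets none of 4 passed between A100-FMT and Con-FMT (0.123% of all genes).

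By their medians, genes of calcium handling moved little in set 2 and between A10-FMT and Con-FMT of set 1. Single genes varied more, such as Atp2a3, at 2.43 to 29.3 FPKM over the libraries. Of 20 genes listed 9 were tested, and among the more abundant were the cytosolic calcium sensors Calm2 (mean 294 FPKM) and Calm3 (243 FPKM) and Atp2a2 (139 FPKM), the pump that fills the endoplasmic reticulum. S100g had a mean of 97.2 FPKM. In set 2 none of the 9 passed in any comparison, and their median differences, -0.03 to 0.05, lay beside medians of -0.01 to 0.05 over all genes. In set 1, between A10-FMT and Con-FMT, 1 of the 8 genes other than S100g passed, beside 16.7% of all tested genes. It was Cldn12, a claudin of calcium-permeable tight junctions, which was lower (-0.24, SE 0.07, limma adjusted p = 0.0329). The median of the 9 was -0.08, as was that of all genes. Cldn12 did not pass after trimmed-mean scaling (-0.16, limma adjusted p = 0.129), nor without any 1 of 4 of the 6 libraries (adjusted p up to 0.163). The other calcium channel of the family, Trpv5, was listed at 0 in 19 libraries and the second calbindin, Calb1, in 21.

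Of 19 genes of vitamin D signalling and metabolism 13 were tested. The most abundant were Pdia3 (mean 454 FPKM), a protein disulfide isomerase also described as a membrane receptor of vitamin D, and the intestinal transcription factors Hnf4a (255 FPKM) and Cdx2 (107 FPKM), then Vdr (89.8 FPKM). The partner receptor Rxra was at 32.6 to 45.2 FPKM. Cyp27b1, which makes active vitamin D, was at 0.15 FPKM or less in every library. The median differences of the list in set 2 were -0.14 to 0.07. In this set, where at most 0.423% of all tested genes passed in a comparison, 1 gene of the list passed, Slc34a2, the sodium phosphate cotransporter. It fell in A10-FMT against Sa by 0.90 (SE 0.10, limma adjusted p = 0.000677) and against Con-FMT by 0.60 (SE 0.10, limma adjusted p = 0.0315), and in A100-FMT against Sa by 0.66 (SE 0.10, limma adjusted p = 0.0109). Of these, the last 2 were lost without any 1 of 4 of their 6 libraries (adjusted p up to 0.250 and 0.132). In set 1 it rose in A10-FMT against Con-FMT by 0.48 (SE 0.10, limma adjusted p = 0.00436) and in A100-FMT against Sa by 0.75 (SE 0.11, limma adjusted p = 0.00205). The rise against Sa did not pass under every alternative (limma adjusted p up to 0.537). Slc34a2 was at 25.3 to 25.9 FPKM in A10-FMT of set 2 and at 40.7 to 47.2 FPKM in A10-FMT of set 1. Between A10-FMT and Con-FMT of set 1, Hnf4a (-0.15, SE 0.04, limma adjusted p = 0.0301) and Ncoa1 (-0.31, SE 0.09, limma adjusted p = 0.027), a coactivator of nuclear receptors, fell, and neither passed after trimmed-mean scaling (-0.07, limma adjusted p = 0.390, and -0.24, limma adjusted p = 0.0605), nor without any 1 of 5 of the 6 libraries.

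All 17 genes of zinc and manganese transport were tested. The metallothioneins Mt1 (mean 302 FPKM) and Mt2 (143 FPKM), which bind zinc, and the zinc importers Slc39a5 (127 FPKM) and Slc39a4 (95.7 FPKM) led the list. Between A10-FMT and Con-FMT of set 1, 3 of 17 passed upwards and none downwards, near the 16.7% of all tested genes that passed. The median of the 17 was 0.04 beside -0.08 over all genes. The 3 that passed were Slc30a10, the zinc transporter Slc30a2 (0.60, SE 0.15, limma adjusted p = 0.0109) and Slc39a4 (0.45, SE 0.15, limma adjusted p = 0.0455). Slc39a4 did not pass without any 1 of the 6 libraries (adjusted p of 0.0594 to 0.161), nor Slc30a2 without replicate 3 of A10-FMT (adjusted p = 0.0552). Slc30a2 was also lower in A100-FMT than in A10-FMT (-0.66, SE 0.15, limma adjusted p = 0.0186), a call lost without any 1 of 3 of the 6 libraries (adjusted p up to 0.112). In set 2 none of the 17 passed in any comparison, and their medians were -0.10 to 0.06. Genes of the 3 lists that were followed through the alternatives, apart from the 6 described, were also counted against Sa of set 1. Of these, 8 passed in Con-FMT and 11 in A100-FMT, where 26.9% and 35.2% of all tested genes passed. The genes followed were a picked part of the lists, so the counts are not read against those shares. Most of these calls did not hold without replicate 3 of Sa, a fit that leaves a single Sa library.

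Levels of S100g were compared with those of each tested gene over the 23 libraries on log2(FPKM + 1). The libraries share their groups and, for S100g, the A10-FMT mice that chose it, so the correlations are descriptions. The 6 genes most like S100g were Otop3 (Pearson r = 0.96, Spearman rho = 0.93), a proton channel of the otopetrin family, Akp3 (r = 0.95, rho = 0.94), an intestinal alkaline phosphatase, Pdx1 (r = 0.89, rho = 0.90), a transcription factor of duodenum and pancreas, Reg1 (r = 0.86, rho = 0.85), a secreted regenerating protein, Foxq1 (r = 0.85, rho = 0.84), a forkhead factor, and Pgrmc2 (r = 0.83, rho = 0.83), a haem-binding membrane protein. Akp3 has close copies in the genome, and how fragments were divided between them is not given. Leaving out the 2 libraries farthest from the median of S100g gave r of 0.94 for Otop3, 0.93 for Akp3 and 0.90 for Pdx1. With the group means taken out, which leaves only the variation between mice of a group, r was 0.95 for Otop3, 0.94 for Akp3 and 0.79 for Pdx1, against 0.31 for Pgrmc2. Over the 18 libraries without Sa and A10-FMT of set 1 it was 0.96, 0.91 and 0.79 for the first 3. Within set 2 alone (12 libraries) r was 0.93 for Otop3, 0.93 for Akp3 and 0.81 for Pdx1, and within set 1 (11 libraries) 0.97, 0.97 and 0.94. The lowest values were those of Phf7 (r = -0.79, rho = -0.83), Mettl8 (r = -0.77, rho = -0.76) and Cep68 (r = -0.76, rho = -0.70).

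Otop3 was at 11 to 14.4 FPKM in A10-FMT of set 1 and at 5.23 to 5.32 FPKM in A10-FMT of set 2. Akp3 was at 86.6 to 189 FPKM and at 19.7 to 34.6 FPKM in the same groups, and Pdx1 at 9.35 to 12.2 FPKM and at 5.95 to 7.89 FPKM. Among the members, Trpv6 was most like S100g (r = 0.90, rho = 0.84, and 0.72 with group means taken out), although at its low level log2(FPKM + 1) spreads its values little. Slc30a10 (r = 0.74, rho = 0.77) and Atp2b1 (r = 0.57, rho = 0.79) had r of 0.11 and 0.14 with group means taken out. Vdr had r = -0.17 (rho = -0.13) and Cyp24a1 r = -0.05 (rho = -0.02). Each r was also computed without the 2 farthest libraries, and was 0.87 for Trpv6, 0.69 for Slc30a10, 0.59 for Atp2b1 and -0.06 for Vdr.

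**Figure D3:**
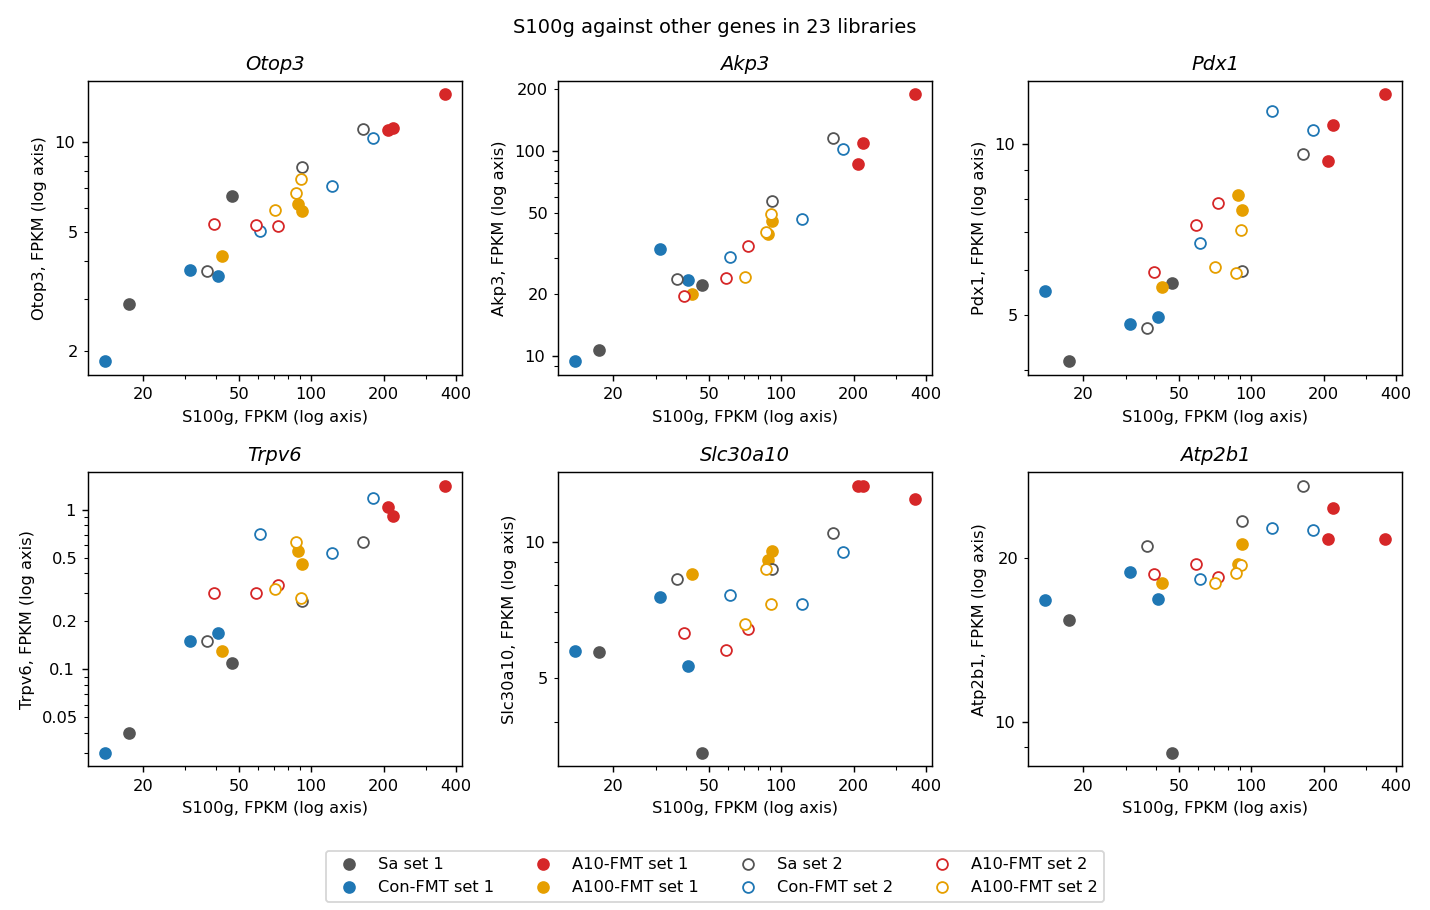
FPKM of S100g (x axes) against Otop3, Akp3, Pdx1, Trpv6, Slc30a10 and Atp2b1 (y axes) in 23 libraries, on log axes, coloured by treatment with set 1 filled and set 2 open. Otop3 and Akp3 follow S100g closely through all groups (r = 0.96 and 0.95), while Atp2b1 lies within 8.8 to 27.2 FPKM throughout.

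Marker genes of several epithelial cell types also differed in these comparisons. In A10-FMT of set 1, whose libraries the choice of S100g used, all 9 enterocyte genes were above Sa. Their median log2 difference was 0.80 beside -0.01 over all genes. Against Con-FMT 8 of 9 passed, beside 16.7% of all tested genes, with a median of 0.47. Examples were the fatty acid binding protein Fabp2 (1.08, SE 0.19, limma adjusted p = 0.00159) and the apolipoprotein Apoa1 (0.80, SE 0.19, limma adjusted p = 0.00893). Their summed level was 11590 to 14215 FPKM in A10-FMT, 6423 to 7801 FPKM in Sa and 7247 to 8375 FPKM in Con-FMT of set 1. In set 2 all 9 were lower in A10-FMT than in Con-FMT, with a median of -0.35. Of them 2 passed (Anpep and Apoa4), beside 0.379% of all tested genes. The summed level of the 9 was 5102 to 6667 FPKM against 7809 to 9636 FPKM.

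The 10 proximal genes summed to 1834 to 2543 FPKM in A10-FMT of set 1, above Sa (796 to 1418 FPKM) and Con-FMT (1241 to 1326 FPKM), and to 827 to 1162 FPKM in A10-FMT of set 2, where Con-FMT had 1131 to 1474 FPKM. The sum is mostly Fabp1 (mean 1152 FPKM). Against Con-FMT in set 1, where 16.7% of all genes passed, 3 of the 8 tested passed, all higher, Pdx1 (0.94, limma adjusted p = 0.00496), the liver-type fatty acid binding protein Fabp1 (0.79, limma adjusted p = 0.0159) and the hormone Sct (0.54, limma adjusted p = 0.0424), while Gata4 (-0.13), Onecut2 (0.01), Cck (0.10), Lct (0.27) and Slc40a1 (0.59) did not, and in set 2 none of 8 passed (median -0.38). The 5 distal genes, led by the bile acid binding protein Fabp6, summed to 997 to 1308 FPKM in A10-FMT of set 1 and 657 to 805 FPKM in Con-FMT, and of the 4 tested 1 passed, the bile acid transporter Slc10a2 (1.12, limma adjusted p = 0.0290), while Fabp6 did not (0.74, limma adjusted p = 0.0645). Paneth cell and enteroendocrine genes differed in other groups. In A100-FMT against Con-FMT of set 1, where 0.406% of all genes passed, 5 of 6 Paneth genes fell, among them Ang4 (-1.78, limma adjusted p = 0.00853) and Itln1 (-1.22, limma adjusted p = 0.00797), and 4 of 6 enteroendocrine genes, Chgb (-0.83), Chga (-0.41), Cck (-0.59) and Gcg (-0.73). In A10-FMT against Sa of set 2, where 0.423% of all genes passed, 3 of 6 Paneth genes passed. All 3 rose, Ang4 (1.52, limma adjusted p = 0.0289), Defa24 (0.86) and Itln1 (0.87). Crypt proliferation genes summed to 202 to 216 FPKM in A10-FMT of set 1, below all other groups. In set 2 their sum in A10-FMT, 288.1 to 309.6 FPKM, was above Sa (235.4 to 285.9 FPKM) and narrowly above Con-FMT (255.7 to 287.9 FPKM). It overlapped there with A100-FMT (286.3 to 314.9 FPKM). T cell genes, at 25.5 to 152 FPKM, overlapped between A10-FMT (43.8 to 89.7 FPKM) and Con-FMT (39.5 to 87.8 FPKM) of set 1. In set 2 their sum was lower in A10-FMT (29.1 to 34.1 FPKM) than in Con-FMT (49.3 to 152 FPKM) without overlap. No tested T cell gene passed in that comparison. Erythroid genes were at 0.21 to 38.8 FPKM. The part of cell composition and of the sampled stretch of intestine in the levels of S100g was not tested.

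**Figure D4:**
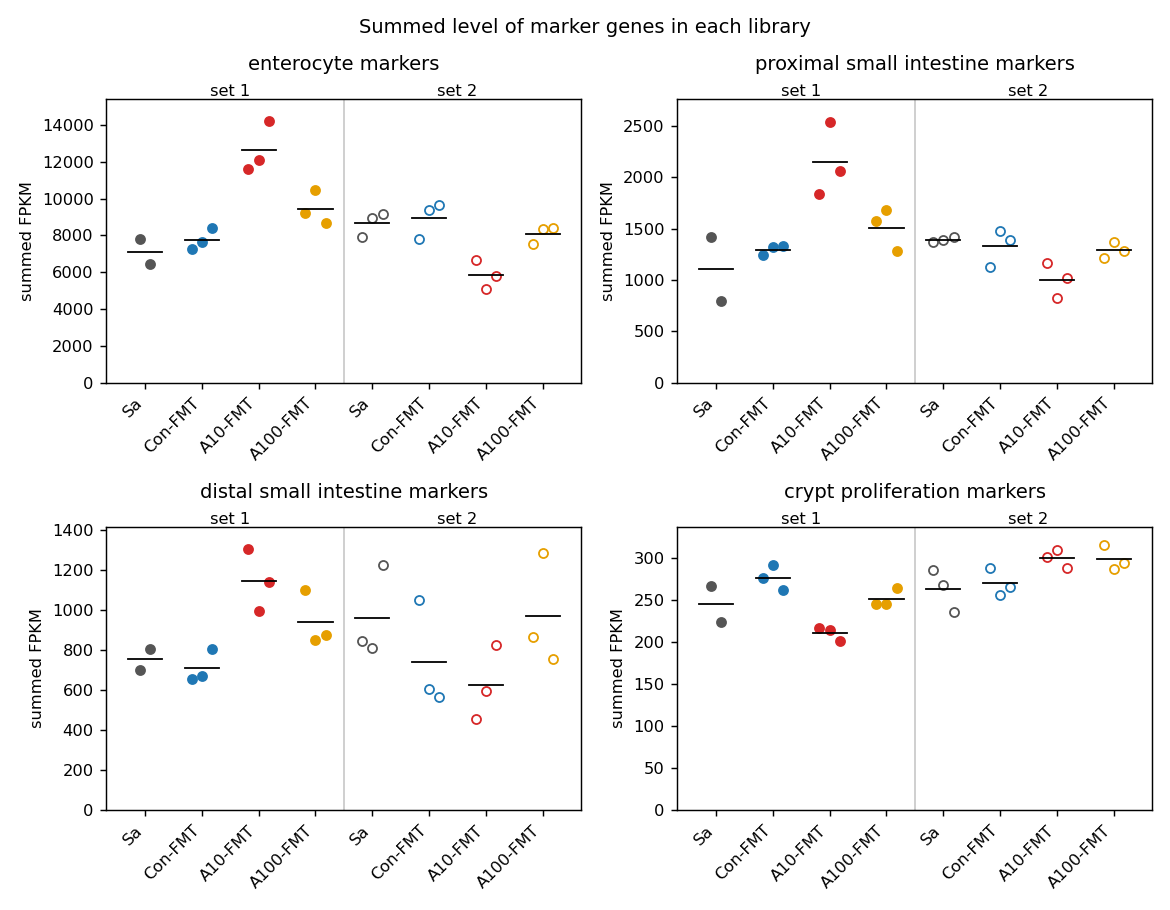
Summed FPKM (y axes, from 0) of 4 lists of marker genes in each library, by treatment, set 1 filled and set 2 open, with the group mean as a bar. In A10-FMT the enterocyte sum is the highest of set 1 (11590 to 14215 FPKM) and the lowest of set 2 (5102 to 6667 FPKM), and the crypt proliferation sum is the lowest of set 1.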

How the data were processed

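The deposited table of FPKM values was used, with 1 column per library and 2 decimals. The authors isolated total RNA, sequenced it and converted the reads of each gene into length- and depth-normalised values, called RPKM in the methods. Genome build mm10 is named in the submitters' processing notes, and an aligner is not given in the sources used here. Reads could not be recovered, so no count model was fitted, the depth of the libraries stayed unknown, and a value of 0 has no stated limit. RefSeq (GRCm38.p6) gave a symbol for 17725 of 17842 NCBI Gene numbers and promoter windows for 5 of the 6 genes.

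Values were analysed as log2(FPKM + 1). The 11337 genes averaging 1 FPKM or more (7878 were below) were fitted with limma 3.58.1 in R 4.3.3 (1 mean per group, eBayes with trend), with Benjamini-Hochberg adjustment. Correlations and exact permutation tests used Python 3.11.15 with numpy 2.4.6, pandas 2.3.3 and scipy 1.17.1, and figures matplotlib 3.10.9. The fit was tested on simulated data. P-values measure the spread between libraries, each read as a mouse, that share an inoculum. Tests that join or compare the sets take them as different mice, which the labels do not state.

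The members, gene lists and tests were chosen with earlier results of these data known. Genes named are the members, list genes that passed or are among the 4 most abundant of their list, the 6 genes most and 3 least like S100g, the 3 most abundant markers of a list, and markers that passed or define a tissue, the last, like Trpv5, Calb1, Rxra and Cyp27b1, named after their values were seen. A gene that this rule would name is not reported here. Alternatives were array quality weights, a pseudocount of 0.1, scaling by trimmed means, every gene with any value above 0, quantile normalization, a limit of 5 FPKM, the description's column, the groups compared alone, a replicate block and leaving out each library. The interactions, the correlations over 18 libraries and the spread without replicate 3 of Sa in set 1 were added after the data were seen.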

Additional observations from a re-analysis of the deposited data

Results flagged for a closer look

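The direction of several members differed between the sets, with every mouse of a group above the other group in one set and below it in the other. For Trpv6 the ratio of mean FPKM of A10-FMT to Con-FMT was 9.63 in set 1 and 0.385 in set 2. The difference was not tested, as Trpv6 was below the level limit of the fit. For Slc30a10 the same ratio was 2.10 in set 1 and 0.758 in set 2, and the interaction was 1.32 (limma adjusted p = 0.000434). For A100-FMT against A10-FMT, Slc30a10 had ratios of 0.695 and 1.22, and this interaction did not pass (-0.73, limma adjusted p = 0.0524).

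For A100-FMT against Sa, Atp2b1 had ratios of 1.62 in set 1 and 0.786 in set 2, with an interaction of 1.02 (limma adjusted p = 0.00741). Slc30a10 had an interaction of 1.14 in this contrast (limma adjusted p = 0.00679), which 26.8% of all tested genes passed. Without replicate 3 of Sa in set 1 these interactions were 0.65 (limma adjusted p = 0.0356) and 0.84 (limma adjusted p = 0.0349). Neither passed with the groups compared alone (limma adjusted p = 0.0777 and 0.0686) or with array quality weights (limma adjusted p = 0.212 for both). Against Sa, A10-FMT had ratios of 1.88 and 0.793 for Atp2b1 and of 2.85 and 0.673 for Slc30a10 in set 1 and set 2. These hold the contrast that chose S100g, and the difference was not tested.

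In the column that the description, but not the title, names for replicate 3 of Sa in set 1, S100g was at 79.11 FPKM, Trpv6 at 0.46 FPKM and Atp2b1 at 16.92 FPKM, each above both Sa libraries of set 1 as used here.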

How the results depend on the processing

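No tested S100g difference crossed the threshold under any alternative run. Small differences changed sign. Con-FMT against Sa ran from -0.81 to 0.56 in set 1 and from -0.14 to 0.92 in set 2 when single libraries were left out, A100-FMT against Sa of set 2 from -0.57 to 0.49, with 0.28 under array quality weights, and A100-FMT of set 1 against set 2 from -0.42 to 0.13. The Trpv6 difference of A100-FMT and Con-FMT over both sets was 0.12 with a pseudocount of 0.1 and ran from -0.0853 to 0.0417 without single libraries. Within set 1, 3 of the 6 genes most like S100g stayed among the first 6. Slc30a10 passed between A100-FMT and Con-FMT of set 1 with array quality weights (limma adjusted p = 0.0294) and the description's column (limma adjusted p = 0.0387). Between A100-FMT and A10-FMT of set 1 Slc30a10 passed under 5 alternatives (limma adjusted p of 0.00980 to 0.0294), and Atp2b1 between A10-FMT and Con-FMT of set 1 under 6 (0.00721 to 0.0334). The rises of Atp2b1 and Slc30a10 in A100-FMT above Sa of set 1 did not pass with the groups compared alone (limma adjusted p of 0.371 and 0.370) or with array quality weights (0.538 and 0.537). The cause of these changes was not tested.

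With a replicate block S100g kept every call, with 1.38 for A100-FMT against Con-FMT in set 1 (limma adjusted p = 0.300), while genes passing between A10-FMT and Sa of set 2 went from 48 to 22, and between A10-FMT and Con-FMT of set 2 from 43 to 0. Same-numbered libraries of a set deviated together by correlations of -0.16 to 0.18 in set 1 and -0.35 to 0.32 in set 2. The numbers were thus not taken as pairs, and pairing between the sets was not checked.

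Precision was limited by 2 or 3 mice per group, by a pooled inoculum per donor group and by the unknown depth, most of all for Trpv6 and Cyp24a1.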
